A study of Mus musculus with 6 samples.

Results

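The genes described here are 10 serotonin receptor genes of the mouse, Htr1a, Htr1b, Htr1d, Htr1f, Htr2a, Htr2c, Htr3a, Htr4, Htr6 and Htr7. They were chosen by name, and each was found by its Ensembl identifier among the 46078 genes of the deposited table through the GENCODE M21 annotation of the mouse genome GRCm38. The striatum, the input structure of the basal ganglia, had been dissected from 3 wild-type (WT) mice and 3 Shank3 transgenic (TG) mice, all males of the C57BL/6J strain aged 12 weeks, and 1 RNA library was sequenced per mouse. The TG mice carry an EGFP-Shank3 transgene and so overexpress Shank3, a scaffold protein of the excitatory postsynapse while the WT mice carry no transgene. The promoter of the transgene is not given in the sources used here. The question asked of the receptors was whether their RNA differed between TG and WT striatum, and how it varied from mouse to mouse.

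Serotonin is released in the striatum by axons of the raphe nuclei in the brainstem, whose cell bodies lie outside the dissected tissue. Its receptors fall into classes by the signal they pass on. The Htr1 receptors couple to Gi/o proteins and lower cyclic AMP, the Htr2 receptors couple to Gq/11 proteins and activate phospholipase C, Htr3a encodes a subunit of a cation channel opened by serotonin, and Htr4, Htr6 and Htr7 encode receptors that couple to Gs proteins and raise cyclic AMP. In the striatum these receptors sit on medium spiny neurons, on interneurons and on the terminals of incoming axons. Htr2c is in addition known as an abundant transcript of the choroid plexus, the epithelium in the ventricles that makes cerebrospinal fluid.

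Htr2c RNA is also known for A-to-I editing, in which ADAR enzymes convert adenosines of a short coding stretch to inosines. The stretch is shown beside the matching bases of Htr2a and Htr2b, because Htr2c was the receptor with the most reads and gene-level counts do not tell edited from unedited RNA. The 30 bases of each gene start at the codons for the Asp-Arg-Tyr motif of the second intracellular loop and are GENCODE M21 transcript sequence of GRCm38, read 5′ to 3′ in the coding direction. Capitals mark the last 5 codons, where the editing sites of Htr2c lie.
Htr2c: gaccggtatgtagcaATACGTAATCCTATT
Htr2a: gaccgctacgtggctATCCAGAACCCCATT
Htr2b: gaccgctatatagccATCAAAAAGCCAATT
The Htr2c window lies in exon 5 of 6, at chrX:147169671-147169700 on the plus strand, the Htr2a window at chr14:74645089-74645118 on the plus strand and the Htr2b window at chr1:86102492-86102521 on the minus strand. Over the 30 bases, Htr2c differs from Htr2a at 9 positions and from Htr2b at 9 positions. Within the 15 capital bases the differences number 5 and 6.

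Per library, between 27689589 and 36647626 reads fell on genes, as recovered from the deposited normalized read counts, in which each library had been scaled by its DESeq2 size factor. For Shank3, the TG libraries gave 29891, 28309 and 26044 normalized read counts and the WT libraries 13807, 12918 and 13865 (limma, log2 fold change 1.05 with SE 0.06 and adjusted P = 7.04e-05), so each library matched its label. All 10 medium spiny neuron markers, Drd1, Drd2 and Ppp1r1b among them, were well above the filter in every library, with 2115.9 or more normalized read counts. Spiny neuron RNA was thus present in every library, as the tissue label implies. The cortical marker Slc17a7 had similar read counts, with a mean of 26172 over the 6 libraries beside 25045 for Ppp1r1b. Its exons cover 5392 bases against 2928 for Ppp1r1b, so per kilobase it was lower. Other cortical excitatory neuron markers had means from 253 (Emx1) to 3510 (Lamp5). The share of cortical tissue in the dissections was not tested. TG replicate 1 stood apart. In it 9 of the 10 medium spiny neuron markers were lowest and 20 of 20 choroid plexus markers were highest among the 6 libraries. Their summed level was 123534 for medium spiny neurons, against 144709 to 172888 in the other TG mice and 149108 to 171967 in WT mice. For choroid plexus it was 29782, against 8614 to 9728 in the other TG mice and 8357 to 9461 in WT mice. Outside TG replicate 1 this sum is mostly Enpp2, and without that gene it was 16523 in TG replicate 1, 2241 in TG replicate 2, 818 in TG replicate 3 and 861 to 1189 in WT mice. TG replicate 2 was thus raised as well, with 13 of the 20 markers above each WT value, against 4 in TG replicate 3. Of the 19 choroid plexus markers tested, 18 had a higher TG mean and 1 a lower one on the log2 scale, with a median of 0.86. Limma called 0 of them, with 5 at an unadjusted P value under 0.05, beside 4.31% of all genes tested. DESeq2 and edgeR, run here on the recovered reads, also called 0 of these markers. At the unadjusted threshold they had 8 and 12, beside 431 and 771 of the 17605 genes tested. The paper, which corrected its DESeq2 P values with an estimated null distribution before adjustment, lists Clic6 among its up-regulated genes. In 4 of the markers, Clic6, Sostdc1, F5 and Tmem72, the groups did not overlap, named after their values were seen, or 21.1% of the list beside 10.1% of all genes tested. In such tissue RNA, fewer cells of a type and less RNA per cell cannot be told apart.

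The receptor RNAs did not separate the genotypes. By limma on log2(normalized read count + 1), 0 of the 10 receptor genes passed an adjusted P value of 0.05, 0 passed an unadjusted P value of 0.05, and the same counts of 0 were given by edgeR and DESeq2 on the recovered reads. Of the 17605 genes tested, those with a mean of at least 10 normalized read counts, 0.00568% were called by limma at the adjusted threshold and 4.31% had an unadjusted P value under 0.05. The TG and WT values overlapped in each of the 10 receptors, while 10.1% of all genes tested had no overlap. All 10 receptors passed the filter. Of them 5 had a higher and 5 a lower mean on the log2 scale in TG mice, with log2 fold changes between -0.18 (Htr6) and 0.16 (Htr1a) and a median of 0.0036, beside a median of -0.0018 over all genes tested. Without regard to sign, the median was 0.11 in the receptors and 0.066 over all genes tested. None of the receptors differed by more than 1.2-fold between the group means, against 9.09% of all genes tested. With 3 mice against 3, the two-sided exact permutation test cannot give a P value below 0.1.

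**Figure D1:**
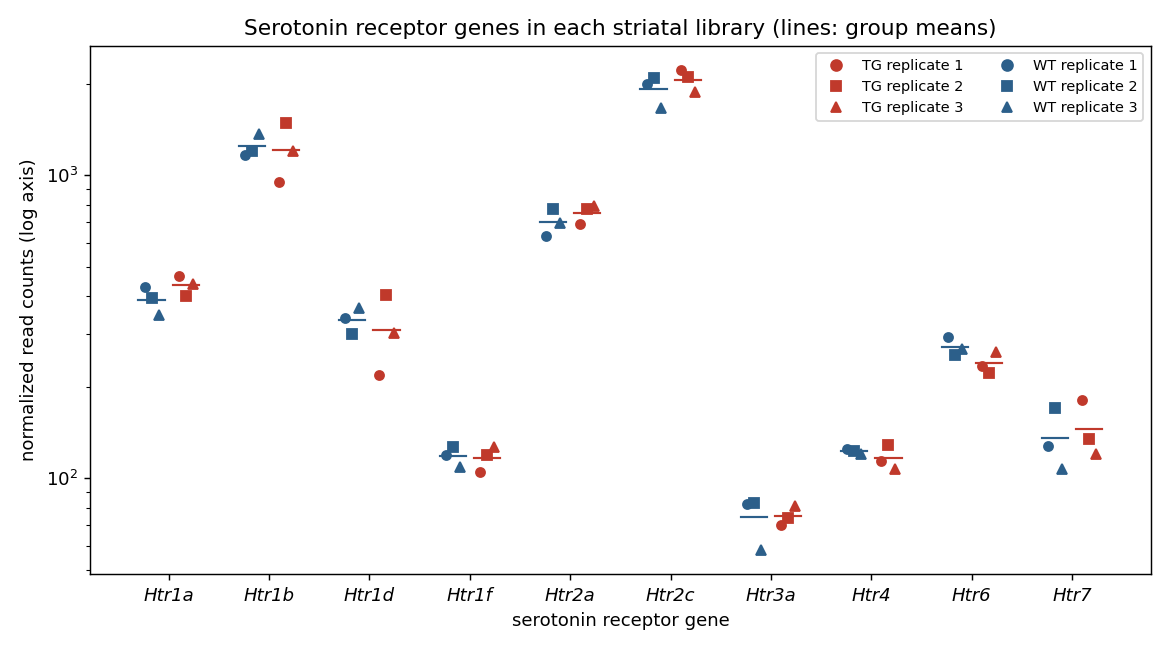
Normalized read counts (log axis) of the 10 serotonin receptor genes in each of the 6 striatal libraries, TG in red and WT in blue, with a line at each group mean. The values of the groups overlap in every gene, and TG replicate 1 is the lowest library for Htr1b, Htr1d and Htr1f and the highest for Htr1a, Htr2c and Htr7.

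Among the Gi/o-coupled receptors, Htr1b had the most reads. This receptor sits on axon terminals, where it limits transmitter release, and in the striatum it is made by medium spiny neurons. TG replicates 1, 2 and 3 gave 952, 1484 and 1200 normalized read counts, and WT replicates 1, 2 and 3 gave 1165, 1207 and 1371. Both the lowest and the highest of the 6 values thus came from TG mice, and the WT mice lay between them. The coefficient of variation was 21.9% in TG and 8.69% in WT mice, where counting error alone gives 2.87%. By limma the log2 fold change was -0.062, with SE 0.13, a 95% interval from -0.35 to 0.23 and adjusted P = 0.984, and without TG replicate 1 it was 0.10. Htr1b (ENSMUSG00000049511) lies on chromosome 9 from 81628291 to 81633828 on the minus strand, and 852 bases of its exons are shared with D430036J16Rik, a gene on the opposite strand. The library kit does not mark the strand, so reads of the shared bases cannot be assigned to either gene. D430036J16Rik, looked at for this overlap alone, gave TG values of 134, 238 and 156 and WT values of 171, 168 and 180 normalized read counts, again with the ends of the range in TG replicates 1 and 2.

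Htr1d encodes a close relative of the Htr1b receptor that also acts at axon terminals. The TG mice gave 219, 404 and 301 normalized read counts and the WT mice 339, 299 and 365. As for Htr1b, TG replicate 1 was the lowest and TG replicate 2 the highest of the 6 libraries. The spread between TG mice was 30.1% of the mean, the largest of the 10 receptors, against 9.92% in WT mice. The fitted log2 fold change of -0.16, with SE 0.18, a 95% interval from -0.56 to 0.24 and adjusted P = 0.971 by limma, turned to 0.064 without TG replicate 1. The gene (ENSMUSG00000070687) lies on chromosome 4 from 136423524 to 136444398.

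Htr1a encodes the autoreceptor of raphe neurons and a receptor of cortical and hippocampal neurons. Its RNA was measured at 466, 399 and 437 normalized read counts in the TG libraries and at 428, 393 and 346 in the WT libraries. The lowest TG value lay under the highest WT value, so the groups overlapped in part. At 0.16 its log2 fold change was the highest of the 10 receptors, with SE 0.096, a 95% interval from -0.052 to 0.37 and adjusted P = 0.971 by limma. An exact permutation test, two-sided, gave P = 0.2, and leaving out any 1 mouse moved the value within the range from 0.079 to 0.23. Htr1a (ENSMUSG00000021721) lies on chromosome 13 from 105443639 to 105448122.

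Htr1f, the target of the migraine drug lasmiditan, was the least abundant Htr1 receptor, with TG values of 105, 119 and 127 normalized read counts and WT values of 119, 127 and 109. The TG values spanned nearly the same range as the WT values. Limma put the log2 fold change at -0.021, with SE 0.13, a 95% interval from -0.30 to 0.26 and adjusted P = 0.993, and at 0.055 without TG replicate 1. Htr1f (ENSMUSG00000050783) lies on chromosome 16 from 64924729 to 65105854. Counting error alone gives a coefficient of variation of 9.23% for this gene, close to the 9.54% between TG mice and above the 7.71% between WT mice. All 4 Htr1 members have their whole coding sequence in a single exon, as do 6.42% of the 14915 protein-coding genes tested.

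Htr2c, which encodes a Gq/11-coupled receptor on which drugs for appetite and mood act, had the highest read counts of the family. In normalized read counts, TG replicates 1 to 3 gave 2228, 2106 and 1881, and WT replicates 1 to 3 gave 1999, 2100 and 1663. The highest value was that of TG replicate 1, but TG replicate 2 and WT replicate 2 followed closely, and the groups overlapped. The log2 fold change was 0.11, with SE 0.089, a 95% interval from -0.084 to 0.31 and adjusted P = 0.971 by limma. This interval corresponds to a difference between -5.66% and 24.0%. The value was 0.059 without TG replicate 1 and ranged from 0.013 to 0.18 with each mouse left out. Htr2c (ENSMUSG00000041380) spans chromosome X from 146962513 to 147197277 and hosts several miRNA genes in its introns, whose annotated bases it does not share in its exons.

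Since Htr2c is also a choroid plexus transcript, its values were set beside Ttr, which encodes the transthyretin secreted by that epithelium. For Ttr the TG libraries gave 13701, 1122 and 204 normalized read counts and the WT libraries 322, 120 and 432. TG replicate 1 thus held 31.2 times the mean of the other 5 libraries for Ttr, 6.42 times for Kl, 1.57 times for Clic6 and 1.14 times for Htr2c. TG replicate 2 was second in both, with Htr2c at 2106, while WT replicate 2, with the lowest Ttr, had Htr2c at 2100. Across the 6 libraries, r between Htr2c and the summed choroid plexus markers was 0.51 (two-sided exact permutation P = 0.28, adjusted over 30 relations 0.563) and rho was 0.49 (exact permutation P = 0.36). Without TG replicate 1 and WT replicate 2, the libraries farthest from the median, r was -0.014. With the summed choroid plexus markers as a covariate the log2 fold change of Htr2c was 0.060. That covariate includes Enpp2 and so sets TG replicate 1 apart more than TG replicate 2. How much of the Htr2c RNA in these TG libraries came from choroid plexus was not tested.

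Htr2a encodes the receptor at which psychedelic drugs act and is known for its expression in cortical pyramidal neurons. TG values were 692, 777 and 792 normalized read counts, beside WT values of 633, 774 and 697. TG replicate 1 was the lowest of its group and lay within the WT range. Its log2 fold change was 0.11, with SE 0.085, a 95% interval from -0.083 to 0.29 and adjusted P = 0.971 by limma, and 0.17 without TG replicate 1. Htr2a (ENSMUSG00000034997) lies on chromosome 14 from 74640840 to 74709494.

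Htr3a, the channel subunit, is known from a subset of GABAergic interneurons and was the member with the fewest reads, 59 to 89 per library before normalization. After normalization the TG mice stood at 70.4, 74.2 and 80.8 and the WT mice at 82.4, 83.2 and 57.9. All TG values lay inside the WT range, whose low end was WT replicate 3. Between the genotypes limma gave a log2 fold change of 0.028, with SE 0.17, a 95% interval from -0.35 to 0.41 and adjusted P = 0.993. At this depth counting error alone gives a coefficient of variation of 11.6%, and a difference of up to about 32.9% would lie within the interval. Htr3a (ENSMUSG00000032269) lies on chromosome 9 from 48899213 to 48911099. Its partner subunit Htr3b had 1 read in the 6 libraries together.

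Of the Gs-coupled receptors, Htr6 had the lowest log2 fold change of the family. This receptor is enriched in the striatum and is found on the primary cilia of neurons. The TG libraries gave 235, 223 and 262 normalized read counts and the WT libraries 292, 256 and 268. TG replicates 1 and 2 lay under each WT value and TG replicate 3 lay among them. This gave a log2 fold change of -0.18, with SE 0.098, a 95% interval from -0.40 to 0.035 and adjusted P = 0.971 by limma. Permuting the samples exactly, two-sided, gave P = 0.2, and with each mouse left out the value ranged from -0.25 to -0.13. Htr6 (ENSMUSG00000028747) lies on chromosome 4 from 139061108 to 139075570 on the minus strand.

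Htr4, whose product raises cyclic AMP and is studied as a target for fast antidepressant action, stood at 114, 129 and 107 normalized read counts in the TG libraries, against 125, 123.5 and 121 in the WT libraries. The WT values had a coefficient of variation of 1.66%, less than the 9.14% that counting error alone gives, and lay inside the TG range. By limma the difference was -0.078 on the log2 scale, with SE 0.12, a 95% interval from -0.34 to 0.19 and adjusted P = 0.983. Htr7, a receptor known from thalamus and hypothalamus, gave TG values of 182, 135 and 121 normalized read counts, against WT values of 128, 171 and 107. It varied by 22.0% between TG and 24.1% between WT mice, so both groups held high and low values. The fitted value of 0.11 on the log2 scale, with SE 0.19, a 95% interval from -0.32 to 0.54 and adjusted P = 0.983 by limma, became -0.058 without TG replicate 1, the library with the highest value. Htr7 (ENSMUSG00000024798) lies on chromosome 19 from 35958734 to 36057507.

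**Figure D2:**
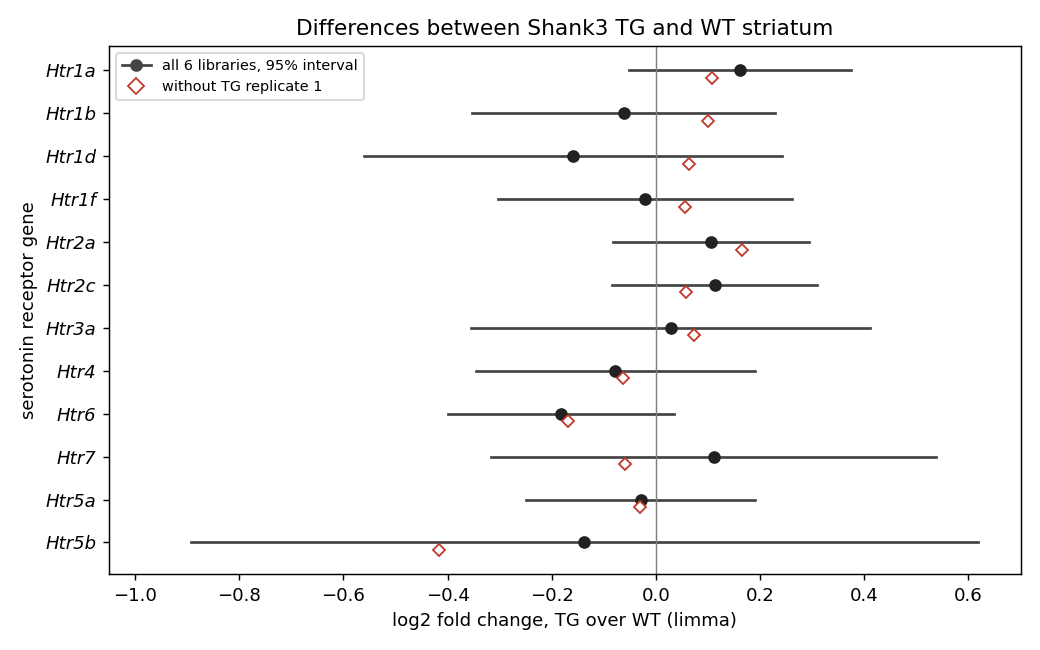
Log2 fold change of each serotonin receptor gene between TG and WT striatum (limma, points) with its 95% interval (lines), and the same value without TG replicate 1 (open diamonds), for the 10 members and for Htr5a and Htr5b. Each interval includes 0, and the diamond lies on the other side of 0 for Htr1b, Htr1d, Htr1f and Htr7.

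Htr1b and Htr1d followed the medium spiny neuron markers across the 6 libraries, a relation looked for after the values had been seen. TG replicate 1 had the lowest and TG replicate 2 the highest summed level of these markers, as for both receptors. Between the log2 summed level and the log2 value of Htr1b, Pearson's r was 0.97 (two-sided exact permutation P = 0.0069) and Spearman's rho 0.94 (exact permutation P = 0.017). For Htr1d, r was 0.95 (exact permutation P = 0.0083) and rho 0.83 (exact permutation P = 0.058). Over the 30 relations computed, of 10 receptors with 3 marker lists, the Benjamini-Hochberg adjusted permutation P value of r was 0.125 for both genes, so neither passed. Without TG replicates 1 and 2, the libraries farthest from the median of the markers, r over the 4 others was 0.93 for Htr1b and 0.73 for Htr1d. Within a genotype there are 3 libraries, too few for a correlation. Each value shares its library and size factor with the marker sum.

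The summed level of the cortical excitatory neuron markers ran the other way. It was lowest in TG replicate 2, with 31473 normalized read counts, and highest in TG replicate 1, with 43811. In WT mice it lay between 36377 and 41742. Most of this sum is Slc17a7, with 20237 in TG replicate 2 and 29848 in TG replicate 1. Of the 10 markers, 8 were lowest in TG replicate 2, but only 2 were highest in TG replicate 1, against 5 in TG replicate 3. With Htr1b, r was -0.88 (exact permutation P = 0.019, adjusted 0.146), rho was -0.94 (exact permutation P = 0.017) and r was -0.72 without TG replicate 2 and WT replicate 3, the libraries farthest from the median. Htr1a in turn had a negative r of -0.86 with the medium spiny neuron markers (exact permutation P = 0.038, adjusted 0.225), with rho at -0.83 (exact permutation P = 0.058) and r at -0.99 without TG replicates 1 and 2. Htr1f had an r of -0.76 with the choroid plexus markers (exact permutation P = 0.019, adjusted 0.146), with rho at -0.83 (exact permutation P = 0.058). Without TG replicate 1 and WT replicate 2, that r was -0.59. None of these relations passed the adjustment. Slc17a7, the vesicular glutamate transporter of cortical neurons, had between 20237 and 29848 normalized read counts, so RNA of cortical type was present in every library. With the medium spiny neuron markers as a covariate, an alternative added after the data were seen, the log2 fold change was 0.094 for Htr1b and 0.040 for Htr1d, and neither was called. Summed levels of the other lists covered narrower ranges, 10957 to 12088 for striatal interneurons, 412 to 479 for thalamus and 665 to 760 for hippocampus.

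**Figure D3:**
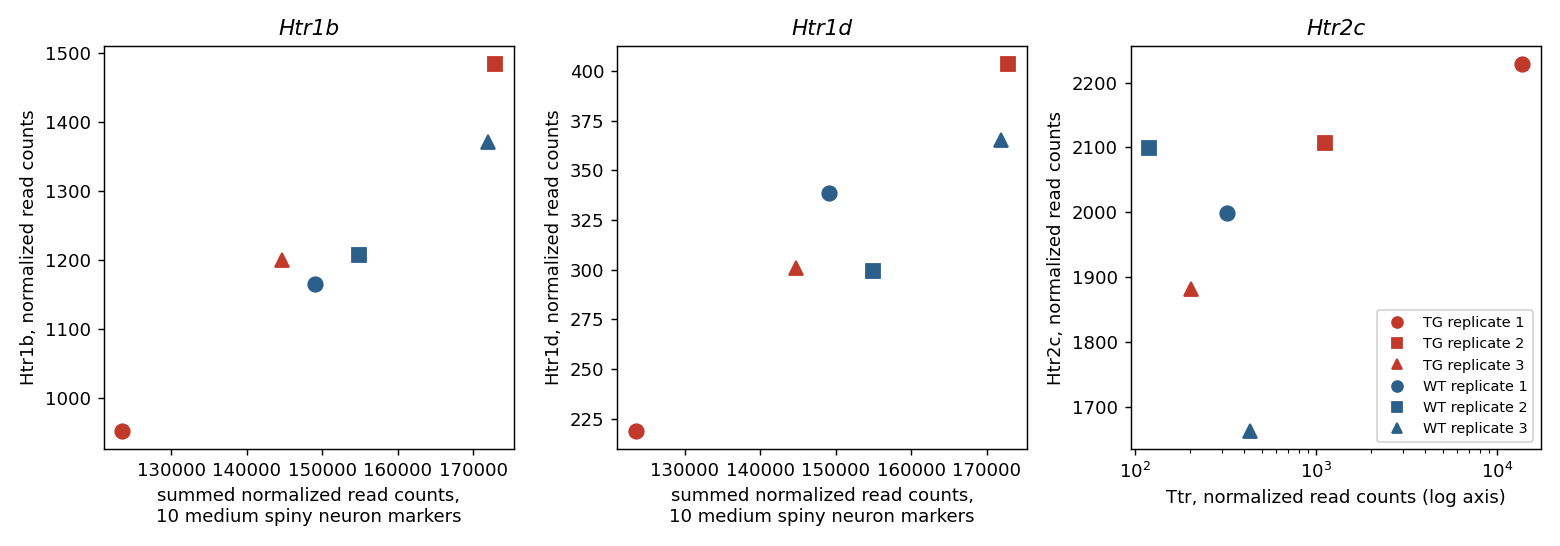
Normalized read counts of Htr1b and Htr1d in each library against the summed level of the 10 medium spiny neuron markers, and of Htr2c against Ttr (log axis), with TG in red and WT in blue. Htr1b and Htr1d are lowest in TG replicate 1 and highest in TG replicate 2, the libraries at the ends of the marker axis, while Htr2c stands at 2228 in TG replicate 1 and 2100 in WT replicate 2, whose Ttr levels are 13701 and 120.

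Levels of different receptors were compared per kilobase of merged exons. Over the 6 libraries Htr1b had a mean of 260.3 ± 38.7 normalized read counts per kilobase (SD, n = 6), Htr2c 214 ± 21.5, Htr2a 130 ± 11.3 and Htr6 109 ± 10.5. The median over the genes tested was 121, and 69.0% of these genes lay under Htr1b. Htr1d (100.3 ± 20.0) and Htr1a (91.8 ± 9.33) followed, and then, with a clear step in 6 of 6 libraries, Htr1f (45.6 ± 3.55), Htr7 (41.4 ± 8.68), Htr3a (35.9 ± 4.66) and Htr4 (24.4 ± 1.63). Htr1b lay above Htr2c in 5 of 6 libraries, with overlapping ranges, and TG replicate 1 was the exception. Htr2c lay above Htr2a and Htr3a above Htr4 in 6 of 6 libraries without overlap. The ranges of Htr2a and Htr6, of Htr6 and Htr1d, of Htr1d and Htr1a, of Htr1f and Htr7 and of Htr7 and Htr3a overlapped, and their order changed between libraries. Within libraries, Htr2a lay above Htr6 and Htr6 above Htr1d in 5 of 6, and Htr1f above Htr7 and Htr7 above Htr3a in 4 of 6. Htr5a, described below, had a mean of 94.9, between those of Htr1d and Htr1a.

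The top of this order depends on the length used. The merged exons of Htr2c join the exons of all its transcripts and are 9328 bases long, while its longest protein-coding transcript has 4883. With the latter, an alternative chosen after the data were seen, Htr2c had 409 normalized read counts per kilobase and lay above Htr1b in 6 of 6 libraries. By class, the Gi/o-coupled receptors made up 42.0% to 51.1% of the summed level per kilobase of the 10 genes in the 6 libraries, the Gq/11-coupled receptors 29.5% to 36.7%, the Gs-coupled receptors 14.2% to 17.9% and Htr3a 2.71% to 3.77%. With the longest coding transcripts the first of these ranges was 34.6% to 44.5% and the Gq/11-coupled share 38.6% to 47.6%. The Gi/o-coupled share was 46.6% ± 4.37 in TG and 47.8% ± 2.99 in WT mice (SD, n = 3), a difference smaller than the SD of either group. For the Gq/11-coupled receptors the shares were 33.8% ± 2.48 and 31.5% ± 2.16, and for the Gs-coupled receptors 16.1% ± 1.88 and 17.3% ± 0.63. These differences of 2.33 and -1.16 percentage points, TG minus WT, exceeded the WT SD but not the TG SD, and the groups overlapped in each class. The share of Htr3a was 3.42% ± 0.289 in TG and 3.40% ± 0.596 in WT mice. No test was run on the shares.

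**Figure D4:**
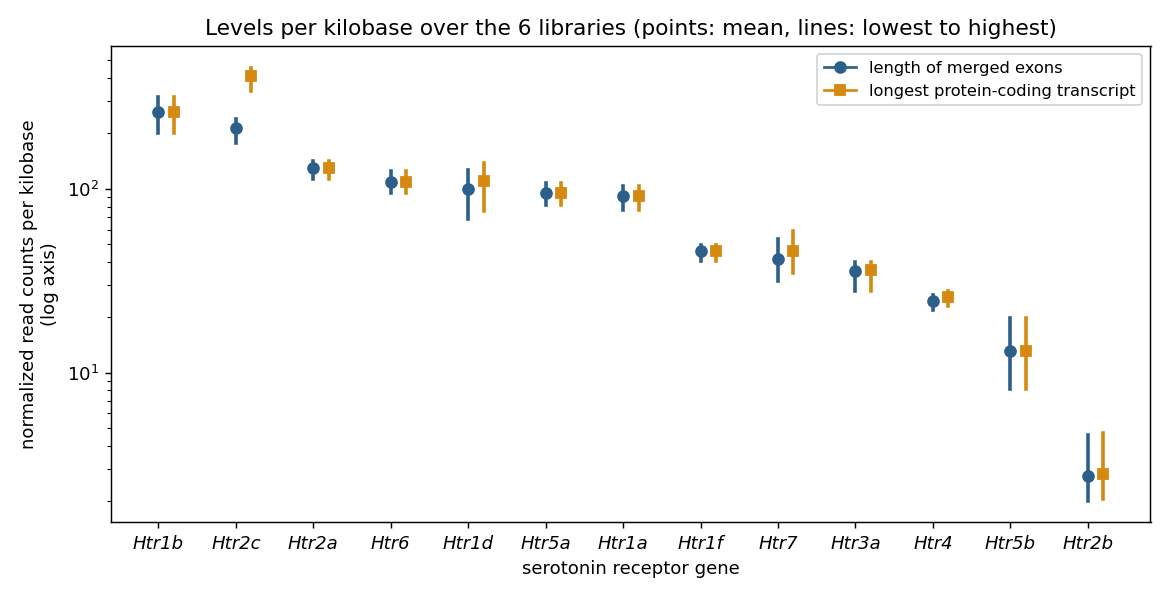
Normalized read counts per kilobase (log axis) of the serotonin receptor genes over the 6 libraries, with the mean as a point and the lowest to highest library as a line, for the length of the merged exons (blue) and of the longest protein-coding transcript (orange). Htr1b and Htr2c lead under both lengths and change places between them, and Htr3b, with 1 read in all, is left out.

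The remaining serotonin receptor genes of the annotation were measured in the same way. Htr5a, a Gi/o-coupled receptor, gave TG values of 504, 436 and 580 and WT values of 526, 527 and 488 normalized read counts. Its WT values lay inside the TG range, with a log2 fold change of -0.029, SE 0.099 and adjusted P = 0.989 by limma. Htr5b had 15.7 to 34.3 normalized read counts in TG and 17.7 to 38.3 in WT mice, which limma put at -0.14 on the log2 scale with SE 0.34 and adjusted P = 0.986. Htr2b had 5 to 10 reads per library and, like Htr3b, was not tested.

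Genes that supply or remove serotonin gave no call either. Raphe neurons make serotonin with Tph2, take it up again with Slc6a4 and are specified by Fev. Slc6a4 had 0 to 3 reads per library and Fev 0 to 2, so these markers of raphe cell bodies were at or near 0, while Tph2 had between 26.2 and 40.1 normalized read counts. Tph1, the synthesizing enzyme outside the brain, had 2, 6 and 5 reads in TG and 7, 9 and 10 in WT mice, under the filter and untested. Of the 10 listed genes 7 were tested, and 0 passed an adjusted P value of 0.05. At an unadjusted P value of 0.05 limma had 1 higher and 0 lower of the 7, beside 4.31% of all genes tested. DESeq2 and edgeR called 0 as well, with 0 and 1 at the unadjusted threshold. This was Maob, an enzyme that breaks down monoamines, with TG values of 867, 861 and 781 and WT values of 797, 700 and 736 normalized read counts. The lowest TG value lay within the WT range, and limma gave a log2 fold change of 0.17 with SE 0.071 and adjusted P = 0.971. Maoa, its relative with a preference for serotonin, differed by 0.070 on the log2 scale (SE 0.064). Slc18a2, which loads monoamines into vesicles, stood at 199, 154 and 170 normalized read counts in TG libraries and 155, 141 and 147 in WT libraries, where limma gave 0.23 with SE 0.12 and adjusted P = 0.971.

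Downstream of the receptors, 15 of 15 listed G protein, effector and channel genes were tested and 0 were called, with a median log2 fold change of -0.02. Plcb4, a phospholipase C activated by Gq/11 proteins, was the only gene of this list with an unadjusted limma P value under 0.05. This is 1 of 15, beside 4.31% of all genes tested. The TG values of 2010, 1747 and 2169 normalized read counts overlapped the WT values of 1626, 1902 and 1637, and limma gave a log2 fold change of 0.20 with SE 0.085 and adjusted P = 0.971. Adcy5, the main striatal adenylyl cyclase, gave TG values of 32420, 41944 and 36065 and WT values of 37206, 39725 and 44033 normalized read counts. It too was lowest in TG replicate 1, with a log2 fold change of -0.14 (SE 0.093). Itpr1, the receptor that releases calcium in response to the product of phospholipase C, had the highest mean of the list over the 6 libraries, though Adcy5 lay above it in 4 of them, with TG values of 34921, 41059 and 40567 and WT values of 36980, 39653 and 41015 normalized read counts and a log2 fold change of -0.016 (SE 0.072). Both other tools called 0 genes of this list, with 1 each at an unadjusted P value of 0.05. The 13 genes other than Plcb4 and Adcy5 had log2 fold changes between -0.077 (Gnai2) and 0.17 (Kcnj3).

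Among the receptor partners and regulators, 12 of 12 were tested and 0 were called, with 0 at an unadjusted P value of 0.05 by limma. Ric3, a chaperone that helps assemble receptor channels of the Htr3a type, was the member of the list whose groups did not overlap, with TG values of 2536, 2517 and 2521 and WT values of 2416, 2381 and 2404 normalized read counts. Its log2 fold change of 0.073 (SE 0.043) had an unadjusted P = 0.12 and an adjusted P = 0.971 by limma, and 1 of 12 is near the 10.1% of all genes tested. Dlg4, which encodes the postsynaptic scaffold PSD-95 that binds the Htr2a and Htr2c receptors, was the most abundant gene of this list, with a log2 fold change of -0.050 (SE 0.050). Adar and Adarb1, which encode the editing enzymes that act on Htr2c RNA, had log2 fold changes of 0.056 (SE 0.046) and -0.034 (SE 0.055). S100a10, which encodes the p11 protein that binds the Htr1b and Htr4 receptors, gave TG values of 367, 326 and 343 and WT values of 354, 385 and 358 normalized read counts, with a log2 fold change of -0.083 (SE 0.082).

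**Figure D5:**
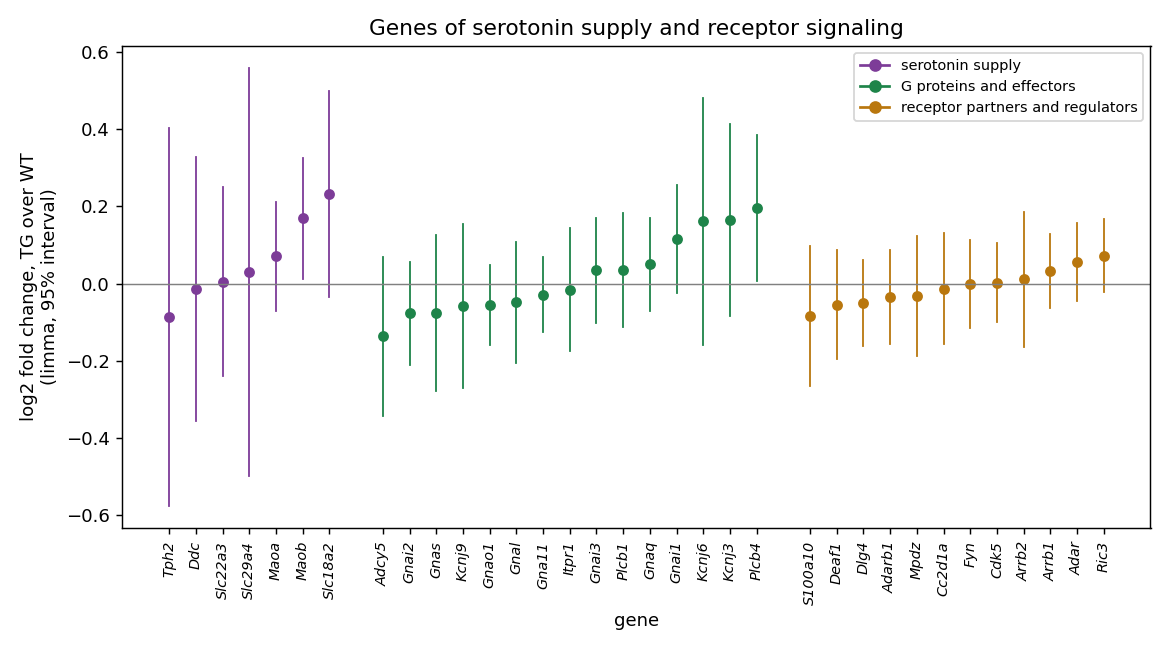
Log2 fold change between TG and WT striatum (limma, points) with 95% intervals (lines) for the tested genes of serotonin supply, of G proteins and effectors and of receptor partners and regulators. Values lie between -0.14 (Adcy5) and 0.23 (Slc18a2), and the intervals of Maob and Plcb4 alone exclude 0 before adjustment.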

How the data were processed

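As the paper's methods and the labels state, the authors ran Trimmomatic 0.35 on the reads, TopHat2 2.1.0 for alignment to GRCm38 and HTSeq for gene counts. What they deposited is a signal, the gene's read count over the library's DESeq2 size factor. Neither the annotation release nor HTSeq's strand option is given in the sources used here. Dividing each library's values by its smallest value above 0 gave whole numbers (within 0.01) for 100% of values, so reads were recovered. Because read pairs were sequenced, a read can stand for a pair.

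The main test was limma 3.58.1 in R 4.3.3 applied to log2(value + 1) with a trended prior. Genes averaging 10 or more normalized read counts were kept, 17605 in all, and P values were adjusted over them by Benjamini-Hochberg. A fold change on this scale understates that of genes with low counts. DESeq2 1.42.0 and edgeR 4.0.16 were run on the recovered reads as alternatives and called 7 genes and 1 gene, against 1 by limma. On simulated reads of 17605 genes, 200 of them changed, limma tested the 17449 that passed the filter and called 151, of which 9 were unchanged. It recovered 83.7% of the changed genes tested at a log2 fold change of 1 and 60.6% at 0.5, of either sign. Each gene was drawn independently, so the simulation held no differences in tissue composition between libraries such as those of TG replicate 1. Gene positions, exons and lengths are those of GENCODE M21, and each of the 10 receptors matched 1 identifier. Named genes are the receptors, Shank3, and members of the pathway and marker lists that were called, did not overlap between groups or were abundant, plus the 3 genes most alike each receptor. D430036J16Rik, the pathway genes named outside this rule (Maob, Slc18a2, Plcb4, Tph1, Tph2, Slc6a4, Fev, Gnai2, Kcnj3, Adar, Adarb1 and S100a10) and the lengths of coding transcripts were added after the data were seen. The receptors and lists were chosen with earlier results of these data known. Confidence intervals are at 95%.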

Additional observations from a re-analysis of the deposited data

How the results depend on the processing

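With 3 mice per genotype, the data limit the receptors to intervals of the difference between -32.2% (Htr1d) and 45.2% (Htr7). No receptor and no gene of the serotonin pathway lists was called under any alternative run. Leaving aside the filters on low values and the replicate block, which cannot move a fitted log2 fold change, and the left-out mice, 71 of 80 values for the receptors under 8 alternatives kept their direction. The 9 that turned all came with the choroid plexus or medium spiny neuron markers as a covariate. Alternatives of tool, scaling and pseudocount refit the same 6 libraries and so test the direction little. With the choroid plexus markers as a covariate, the value turned to 0.098 for Htr1b, 0.062 for Htr1d, 0.070 for Htr1f and -0.057 for Htr7. With the medium spiny neuron markers as a covariate, added after the data were seen, it turned to 0.094 for Htr1b, 0.040 for Htr1d, 0.00061 for Htr1f, -0.0090 for Htr3a and -0.013 for Htr7. With each mouse left out it ranged from -0.22 to 0.10 for Htr1b, -0.38 to 0.064 for Htr1d, -0.081 to 0.055 for Htr1f, -0.14 to 0.12 for Htr3a and -0.058 to 0.29 for Htr7. The cause of these turns was not tested. The count of receptors without overlap, 0 with 6 libraries, was 1 to 2 with a mouse left out, where 2992 to 4508 of the 17605 genes tested had none. Htr2a was apart without TG replicate 1, Htr1a and Htr4 without TG replicate 2, Htr6 and Htr2c without TG replicate 3, Htr1a without WT replicate 1, Htr6 without WT replicate 2 and Htr3a without WT replicate 3. Over all genes, 1 was called in the main test, 7 by DESeq2, 5 without a filter on low values, 3 with the cortical and 5 with the medium spiny neuron markers as a covariate, and 1 to 2 with a mouse left out, 2 without TG replicate 2 or 3. Same-numbered TG and WT libraries deviated from their group means with correlations of 0.047, 0.016 and 0.093 over the genes tested, so the numbers were not taken as pairs. The replicate block called 1 gene over all and 0 receptors, with log2 fold changes such as -0.062 for Htr1b and 0.11 for Htr2c and adjusted P values from 0.853 to 0.986 by limma, and it changed no call. Differently numbered libraries gave correlations from -0.12 (TG replicate 1 with WT replicate 3) to 0.077 (TG replicate 1 with WT replicate 2). TG replicate 1 thus deviated most like WT replicate 2, and TG replicates 2 and 3 most like WT replicate 3.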

Other observations

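For each receptor the 3 genes tested with the most similar profile of log2 values over the 6 libraries were listed, by Pearson's r, as a description. With so few libraries high values are common, and between 16 (Htr3a) and 139 (Htr1b) genes exceeded 0.95. The genes nearest to Htr1b were Kcnd2 (r = 0.998), Lpl (0.997) and Glce (0.994), and those nearest to Htr1d were Tmem53 (0.996), Kctd8 (0.992) and Adora2a (0.992), the adenosine receptor of indirect pathway medium spiny neurons and itself on the marker list. Those nearest to Htr2c were Eif2b3 (0.993), Map2k1 (0.985) and Gm8010 (0.984). For Htr1a they were Ogg1 (0.997), Npy1r (0.995) and Zfp791 (0.992), and for Htr2a Synj2bp (0.997), Usp15 (0.991) and Zfp369 (0.987). Htr4 was followed by Ptch1 (0.993), Pbx3 (0.983) and 1500009L16Rik (0.981), and Htr7 by Creld2 (0.991), Usp27x (0.987) and Mboat7 (0.984). For Htr1f they were Clnk (0.992), Nr2c1 (0.985) and Mterf2 (0.983), for Htr3a Pdcd5 (0.990), Zfp641 (0.981) and Bloc1s3 (0.974), and for Htr6 Slc7a6os (0.983), Ift43 (0.978) and Il1f9 (0.978).

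TG replicate 1, the library with the lowest medium spiny neuron and highest choroid plexus markers, held 0.741 times the mean of the other 5 libraries for Htr1b and 0.641 times for Htr1d, beside 0.710 for Drd1, 0.790 for Drd2 and 0.728 for Adora2a. For Htr7 it held 1.37 times that mean, for Htr1a 1.16 times and for Slc17a7 1.17 times, while Htr2a (0.942), Htr4 (0.943) and Htr3a (0.929) lay near it.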
